A study of Mus musculus with 12 samples.

Results

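The nuclear genes of the mitochondrial respiratory chain and ATP synthase were followed in the liver of mice fed 2 diets with and without a maple syrup extract. They were taken by name, as every gene whose symbol begins with Nduf, Sdh, Uqcr, Cox4 to Cox8 or Atp5 and that a probe set with no other symbol measured. This gave 93 genes of the 22180 named genes on the array. By role they were 6 core and 26 accessory subunits of complex I with 8 assembly factors, 4 subunits and 4 assembly factors of complex II, 7 subunits of complex III, 10 subunits of complex IV found in most tissues, 9 genes for complex IV isoforms of other tissues and the supercomplex factor, 17 subunits of ATP synthase (5 in F1 and 12 in Fo and the stalks) and 2 pseudogenes. A further 10 probe sets that carry several symbols were not counted among them.

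Male C57BL6 mice ate, without restriction, 1 of 2 diets, low-fat with fat giving 10% of energy and high-fat with 45%, each plain (control) or with MSX, a phenol-enriched extract of maple syrup, at 0.5% by weight. Feeding ran for 12 weeks, from 6 to 18 weeks of age. Each diet thus had a control and an MSX group, and each of the 4 groups had 3 Affymetrix arrays, made from whole-liver RNA and labelled as biological replicates. How animals map to arrays beyond that is not stated, so p-values measure the spread between these arrays. Hippocampus, which the title of the series also names, was not analysed here.

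Complex I and complex II pass electrons from NADH and succinate to ubiquinone, complex III passes them to cytochrome c, and complex IV to oxygen. Complexes I, III and IV pump protons across the inner mitochondrial membrane, and ATP synthase lets them flow back through Fo to drive ATP formation in F1. A hepatocyte is rich in mitochondria and uses the chain to reoxidise the NADH and reduced flavoproteins that fatty acid oxidation yields. Most subunits are encoded in the nucleus and the remainder in mitochondrial DNA, and assembly factors fit them together.

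Values are the deposited array summaries, read as log2 from their range of 0.714 to 14.1, so that a difference of 1 is a doubling. Array medians lay between 4.68 and 4.75 and the correlation of any 2 arrays between 0.973 and 0.984. The median of 9 hepatocyte markers, as a difference from each marker's own mean, stayed between −0.09 and 0.06 in the 12 arrays. Markers of other cells differed between arrays. High-fat control replicate 1 had medians of 0.84 for 10 stellate cell and fibroblast genes, 0.53 for 10 macrophage and Kupffer cell genes and 0.44 for 6 cholangiocyte genes. Macrophage and Kupffer cell genes were at −0.68 in high-fat control replicate 3 and −0.50 in low-fat control replicate 1, and 8 endothelial genes at −0.56 in low-fat control replicate 2. In bulk tissue, fewer cells of a type and less RNA per cell cannot be told apart.

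Nuclear respiratory factor 1 (NRF1) and the ETS factor GABPA are known to bind many promoters of chain genes, so the promoter letters were read. RefSeq windows on GRCm38.p6, from 250 bases before to 50 after the start, were held for 76 of the 93 genes. To show what such promoters look like, the 250 bases before the start are printed 5′ to 3′ for the assembly factors Ndufaf1 and Ndufaf4 and for Ndufs5, which carry a match, and for the muscle isoform Cox7a1, which carries none. These genes are among those described below and were not drawn at random from the 76. Capitals mark the NRF1 core TGCGCA and the ETS motif CCGGAAG, searched on both strands. The positions are chr2:119662835-119663084 on the minus strand for Ndufaf1, chr4:24897833-24898082 on the plus strand for Ndufaf4, chr4:123718187-123718436 on the minus strand for Ndufs5 and chr7:30183921-30184170 on the plus strand for Cox7a1.
Ndufaf1: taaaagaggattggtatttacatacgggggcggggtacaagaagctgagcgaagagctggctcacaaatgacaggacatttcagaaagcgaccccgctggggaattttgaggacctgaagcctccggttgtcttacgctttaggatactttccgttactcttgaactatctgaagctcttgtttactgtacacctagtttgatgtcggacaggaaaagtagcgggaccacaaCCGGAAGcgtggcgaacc
Ndufaf4: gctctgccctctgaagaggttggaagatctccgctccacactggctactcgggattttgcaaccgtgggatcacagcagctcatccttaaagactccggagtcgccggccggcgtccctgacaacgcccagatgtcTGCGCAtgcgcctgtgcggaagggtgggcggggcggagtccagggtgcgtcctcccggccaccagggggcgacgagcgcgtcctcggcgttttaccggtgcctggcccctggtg
Ndufs5: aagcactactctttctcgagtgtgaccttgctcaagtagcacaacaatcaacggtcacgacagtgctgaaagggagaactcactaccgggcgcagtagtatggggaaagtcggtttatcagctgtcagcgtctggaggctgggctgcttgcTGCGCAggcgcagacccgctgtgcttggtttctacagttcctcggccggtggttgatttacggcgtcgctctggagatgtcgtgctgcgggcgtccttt
Cox7a1: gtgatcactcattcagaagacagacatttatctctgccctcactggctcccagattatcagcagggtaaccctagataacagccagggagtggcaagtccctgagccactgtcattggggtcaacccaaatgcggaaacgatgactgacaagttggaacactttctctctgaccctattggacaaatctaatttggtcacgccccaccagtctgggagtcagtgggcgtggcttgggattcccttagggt

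Matches were counted beside their share over all genes, with no test. The NRF1 core was in 19 of 76 windows (25%) against 10.5% of the 15358 protein-coding genes on the array, the ETS motif in 21 (27.6%) against 12.3%, and either in 35 (46.1%) against 20.8%. The YY1 motif AAGATGG was in 13.2% against 6.53%, the Sp1 motif GGGCGG in 50% against 48.8%, the CCAAT box (CCAAT) in 40.8% against 38.5% and the TATA box (TATAAA) in 11.8% against 12.9%. Windows of chain genes had a median of 20 CpG pairs against 15. The NRF1 core, the ETS motif and the Sp1 motif each hold a CpG, and the YY1 motif holds none. The part of CpG content in these shares was not tested. Windows of mitochondrial ribosomal protein genes held the NRF1 core or the ETS motif in 33 of 62 cases (53.2%) and those of beta oxidation genes in 4 of 16 (25%). None of the 5 windows of complex IV isoforms of other tissues and the supercomplex factor had either, and 35 of the other 71 (49.3%) did. A match is letters in a window, and binding was not measured.

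**Figure D1:**
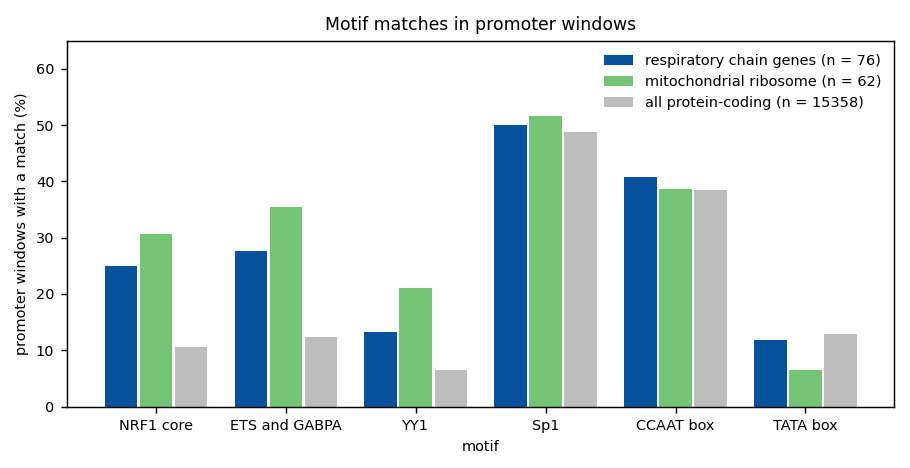
Bars give the percentage of RefSeq promoter windows (250 bases before to 50 after the start) with at least 1 match on either strand, for chain genes, mitochondrial ribosomal protein genes and all protein-coding genes on the array. The NRF1 core and ETS bars of the chain genes (25% and 27.6%) are more than 2 times those of all genes (10.5% and 12.3%). So is the YY1 bar (13.2% against 6.53%), and the Sp1, CCAAT and TATA bars are close together.

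The respiratory chain mRNAs varied little. The median SD of a gene over the 12 arrays was 0.121 among the 93 and 0.197 over all genes, and 74 of the 93 lay below that overall median. Among genes of similar brightness, with mean levels between 6.48 and 9.33, the median SD was 0.12 for the chain genes and 0.158 for 5494 others. From the lowest to the highest array, 65 of the 93 spanned less than 0.5 and 6 spanned 1 or more, against 15.8% of all genes that spanned 1 or more. The genes with the largest SD were Atp5d, for the delta subunit of F1 (0.47), Atp5g1, for one of the c subunits of the Fo ring (0.37), and the pseudogene Atp5c1-ps (0.34). Atp5g1 was low in replicate 2 of the low-fat MSX (4.75) and high-fat MSX (4.32) groups, and between 5.18 and 5.64 in all other arrays.

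**Figure D2:**
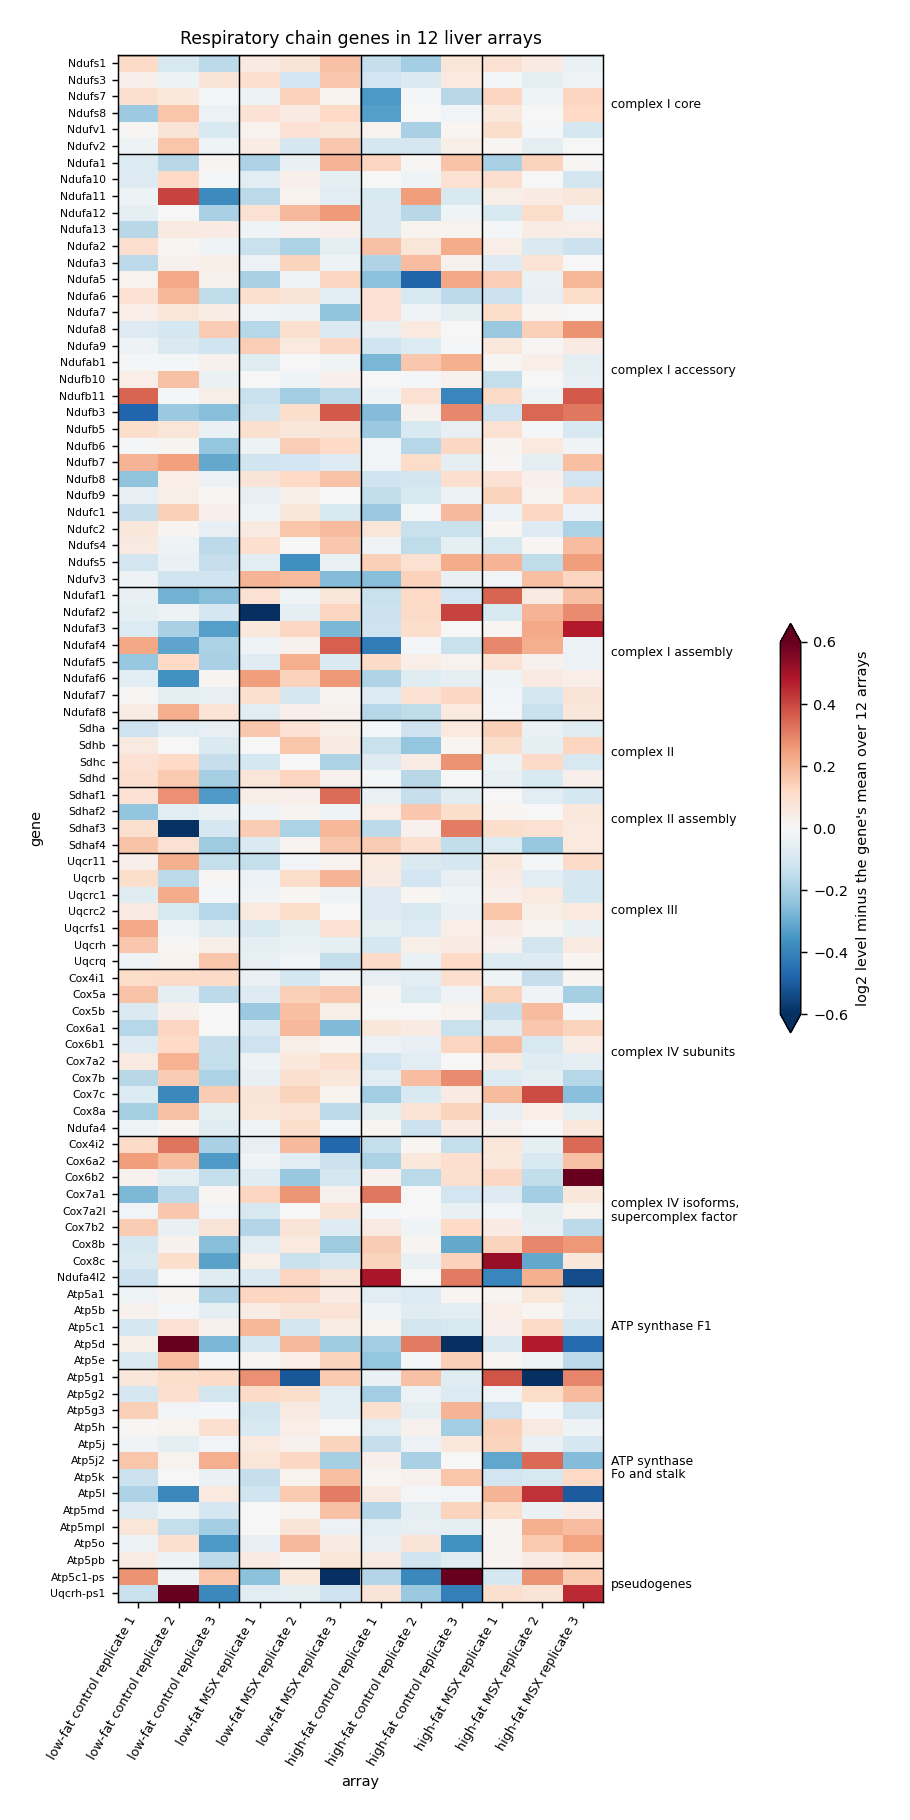
Each cell is the log2 level of 1 of 93 genes (rows, by role) in 1 of 12 arrays (columns) minus that gene's mean over the arrays; colours end at −0.6 and 0.6, and stronger values take the end colour. Most rows are pale. Strong cells of genes such as Atp5d, Atp5g1 and the pseudogenes sit in part of a group's arrays rather than in whole groups.

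None of the 93 genes passed the test for a change in any of the 7 comparisons. With limma and a Benjamini-Hochberg adjusted p under 0.05 over all 22180 genes, 0 of the 93 were called for diet without extract, where 0.018% of all genes were called. Extract on the high-fat diet called 0 of the 93 and 0.0361% of all genes. On the low-fat diet the extract called 0 of the 93 and 0.158% of all genes. Diet in the presence of extract called 0 of the 93 and 0% of all genes, as did the difference between the extract effects, with 0 of the 93 and 0%. The average diet effect called 0 of the 93 and 0.0225% of all genes, and the average extract effect 0 of the 93 and 0.261%. With so few calls anywhere, a count of 0 among 93 genes is near the background and does not set them apart.

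At an unadjusted p under 0.05 the same order of comparisons gave 0 of the 93 against 6.78% of all genes for diet without extract, 2 of 93 against 6.99% for extract on the high-fat diet, 3 of 93 against 8.05% for extract on the low-fat diet and 1 of 93 against 4.56% for diet with extract. The difference of extract effects gave 2 of 93 against 5.09%, the average diet effect 2 of 93 against 5.94% and the average extract effect 7 of 93 against 9.66%. The lowest adjusted p of any chain gene lay between 0.354 (average extract effect) and 0.999 (diet with extract).

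The intervals bound what these arrays could have missed. The 95% interval of the change lay wholly within 1.5-fold in either direction for 83 of the 93 genes for diet without extract, 83 for extract on the high-fat diet, 84 for extract on the low-fat diet and 83 for diet with extract. Over all genes the same held for between 73.1% and 77.7% in these comparisons, against 89.2% to 90.3% of the chain genes. For the average diet effect 92 of 93 (98.9%, against 93.7% of all genes) had intervals within 1.5-fold. For the average extract effect 93 of 93 did (100%, against 92.8% of all genes). The difference of extract effects was the least precise, with 70 of 93 (75.3%, against 39.7% of all genes) within 1.5-fold. Within 2-fold were 88 of 93 (94.6%, against 88.1% of all genes), which left 5 outside, and the median width was 0.36 on each side. Only Atp5d had an interval past 2-fold in any comparison of 2 groups, where between 479 and 632 of the 22180 genes did in each. Smaller shifts are inside these intervals, whose median width on each side in comparisons of 2 groups was 0.25 on the log2 scale for the chain genes and 0.33 for all genes.

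**Figure D3:**
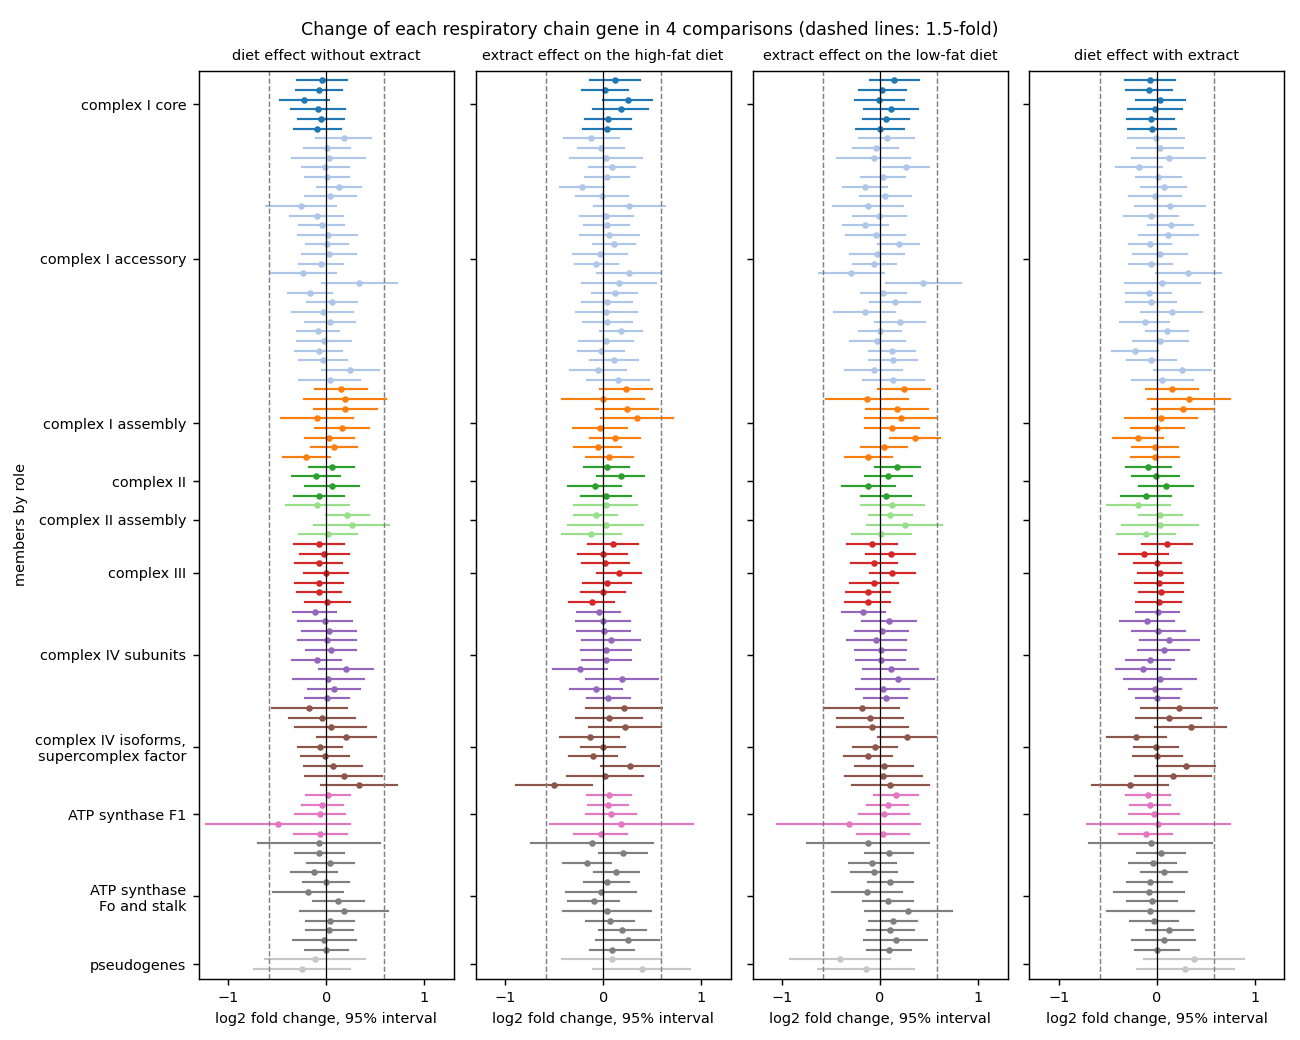
Points are log2 fold changes of the 93 genes, ordered and coloured by role, with 95% intervals from the limma fit as bars, in 4 comparisons of 3 arrays with 3; dashed lines mark 1.5-fold. Between 83 and 84 of the 93 intervals stay inside the dashed lines in each panel, and the long bar among the F1 genes is Atp5d.

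Small offsets were shared by part of the genes. The median log2 fold change of the 93 was −0.0034 for diet without extract (all genes −0.0048), 0.0382 for extract on the high-fat diet (all genes 0.006), 0.0335 for extract on the low-fat diet (all genes −0.0014) and 0.0055 for diet with extract (all genes 0.0015). With extract on the high-fat diet 66 of 93 values were above 0 (71%, against 51.6% of all genes), and on the low-fat diet 55 of 93 (59.1%, against 49.7%). Some other lists had a like or higher share above 0 with extract on the high-fat diet. Above 0 were 61 of 71 mitochondrial ribosomal protein genes (85.9%) and 28 of 36 other chain genes (77.8%). So were 45 of 64 cytosolic ribosomal protein genes (70.3%) and 8 of 9 hepatocyte markers (88.9%). Further lists had a lower share. Among them were mitochondrial beta oxidation (9 of 18, 50%) and mitochondrial import, protein quality and dynamics (12 of 21, 57.1%). Nucleotide exchange and uncoupling had 4 of 9 (44.4%), muscle markers 6 of 13 (46.2%) and stellate cell and fibroblast markers 1 of 10 (10%). The median of the 93 in single arrays, as a difference from each gene's mean, ran from 0.006 to 0.032 in the high-fat MSX arrays and from −0.058 to 0.013 in the high-fat controls, so the groups overlapped. Without high-fat control replicate 1 the median for extract on the high-fat diet was 0.0272. In the low-fat groups the lowest array was low-fat control replicate 3, where 27 of the 93 genes lay above their own mean, and the highest was low-fat MSX replicate 2, where 66 did.

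Group values that did not overlap at all, 3 arrays against 3, were counted against the same count over all genes. For diet without extract 3 chain genes were higher without overlap (all genes 5.29%) and 2 lower (all genes 6.1%). For extract on the high-fat diet 8 of 93 (8.6%) were higher (all genes 6.7%) and 1 was lower, Ndufa2 (all genes 5.51%). For extract on the low-fat diet 13 of 93 (14%) were higher (all genes 7.13%) and 6 lower (all genes 6.73%). For diet with extract 6 were higher (all genes 4.68%) and 5 lower (all genes 4.76%). Ndufa9, an accessory subunit of complex I, and Ndufaf6, an assembly factor, were among the genes higher without overlap under extract on both diets.

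The core subunits of complex I carry the flavin and the iron-sulfur clusters along which electrons travel. For diet without extract all 6 values were below 0, with a median of −0.08 and a range of −0.22 to −0.04, and for extract on the high-fat diet all 6 were above 0, with a median of 0.09 and a range of 0.02 to 0.25. These comparisons share the high-fat control arrays, and without high-fat control replicate 1 the counts were 5 of 6 below 0 for diet (Ndufs8 at 0.02) and 5 of 6 above 0 for extract (Ndufs3 at −0.01). Ndufs7, a subunit with an iron-sulfur cluster next to the ubiquinone site, had the largest of both values. Its levels were 10.37, 10.34 and 10.26 in the low-fat controls, 10.24, 10.41 and 10.29 with MSX, 9.93, 10.27 and 10.10 in the high-fat controls, and 10.40, 10.25 and 10.40 in the high-fat MSX group. High-fat control replicate 1 was the lowest array, and the high-fat groups overlapped through control replicate 2. With extract on the high-fat diet the change was 0.25 ± 0.12 (SE, adjusted p = 0.714), and 0.17 without that array; Ndufs7 for diet without extract was −0.22 (adjusted p = 0.779), and −0.14 without that array. Ndufs1, an iron-sulfur subunit of the electron-input arm, was 8.75, 8.54 and 8.47 in the low-fat controls, 8.68, 8.71 and 8.80 with MSX, 8.49, 8.43 and 8.70 in the high-fat controls, and 8.72, 8.68 and 8.59 with high-fat MSX, and all 4 groups overlapped.

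Among the 26 accessory subunits of complex I, which surround the core and are needed for its assembly and stability, the medians were 0.01, 0.04, −0.01 and 0.03 in the 4 comparisons of 2 groups, in the order used above. Ndufb3, a small membrane-arm subunit, was 6.41, 6.67 and 6.63 in the low-fat controls and 6.78, 7.0 and 7.26 in the low-fat MSX arrays. All 3 MSX arrays were above all 3 controls, with a difference of 0.44 ± 0.18 (SE, adjusted p = 0.553). Its high-fat control values were 6.63, 6.91 and 7.18 and its high-fat MSX values 6.76, 7.23 and 7.20, which overlap. In each of the 4 groups replicate 1 was the lowest array for Ndufb3.

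Ndufa12, an accessory subunit near the NADH-oxidising arm, was 7.72, 7.77 and 7.58 in the low-fat controls and 7.86, 7.97 and 8.03 in the low-fat MSX arrays. The groups were apart by 0.27 ± 0.11 (SE, adjusted p = 0.567), but a second probe set of Ndufa12 gave −0.01 for the same comparison. The high-fat values of the first probe set were 7.68, 7.61 and 7.75 for controls and 7.67, 7.89 and 7.75 for MSX, a difference of 0.09 where the second gave −0.21.

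Ndufa2, an accessory subunit with a thioredoxin-like fold, had lower values with extract on both diets. It was 8.38, 8.29 and 8.25 in the low-fat controls against 8.15, 8.09 and 8.22 with MSX, and 8.46, 8.35 and 8.50 in the high-fat controls against 8.32, 8.19 and 8.15 with MSX. Neither pair of groups overlapped, and the average extract effect was −0.19 ± 0.07 (SE, adjusted p = 0.443).

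Ndufs5, an accessory subunit on the intermembrane side, gave the lowest p for the average diet effect. It was 4.17, 4.24 and 4.14 in the low-fat controls against 4.42, 4.37 and 4.50 in the high-fat controls, which did not overlap, and 4.21, 3.91 and 4.24 against 4.48, 4.13 and 4.53 with MSX, which did. The average was 0.25 ± 0.09 (SE, adjusted p = 0.723). Ndufs5 was dim, with a mean level of 4.28, below the median of every array (4.68 to 4.75).

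Ndufb11, an X-linked membrane-arm subunit, gave the lowest p for the difference between the extract effects. Low-fat control arrays read 5.74, 5.38 and 5.43 and low-fat MSX arrays 5.26, 5.18 and 5.23, while high-fat control arrays read 5.37, 5.48 and 5.0 and high-fat MSX arrays 5.51, 5.37 and 5.76. The low-fat groups did not overlap and the high-fat groups did. The difference of the extract effects was 0.55 ± 0.21 (SE, adjusted p = 0.955).

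Complex I assembly factors build the complex and are not part of it once it is finished. Their median was 0.13 for the average extract effect, and 3 of 8 (Ndufaf6, Ndufaf1 and Ndufaf4) had an unadjusted p under 0.05, all higher, where 9.66% of all genes did in either direction. Ndufaf6 was 6.09, 5.79 and 6.17 in the low-fat controls, 6.40, 6.29 and 6.41 with low-fat MSX, 5.97, 6.07 and 6.09 in the high-fat controls and 6.12, 6.20 and 6.19 with high-fat MSX. MSX arrays were above the controls of the same diet in all cases. The low-fat difference was 0.35 ± 0.12 (SE, adjusted p = 0.434) and the average 0.24 ± 0.08 (SE, adjusted p = 0.354), the lowest of any chain gene; without low-fat control replicate 2 the low-fat difference of Ndufaf6 was 0.24.

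Ndufaf1, whose promoter held the ETS motif, is a factor of the intermediate that forms the membrane arm. It was 7.44, 7.19 and 7.22 in the low-fat controls, 7.57, 7.45 and 7.55 with low-fat MSX, 7.35, 7.60 and 7.36 in the high-fat controls and 7.83, 7.53 and 7.66 with high-fat MSX. The low-fat groups did not overlap and the high-fat groups did. The average extract effect was 0.24 ± 0.09 (SE, adjusted p = 0.389). Ndufaf4, whose promoter held the NRF1 core, is another early assembly factor. It was 8.0, 7.45 and 7.58 in the low-fat controls, 7.74, 7.79 and 8.13 with low-fat MSX, 7.35, 7.76 and 7.64 in the high-fat controls and 8.06, 7.99 and 7.74 with high-fat MSX. Both pairs of groups overlapped, and the average extract effect was 0.28 ± 0.12 (SE, adjusted p = 0.479). No promoter window was held for Ndufaf6. Among the other complex I assembly factors, Ndufaf8 held the ETS motif, and Ndufaf2, Ndufaf3, Ndufaf5 and Ndufaf7 held neither motif.

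**Figure D4:**
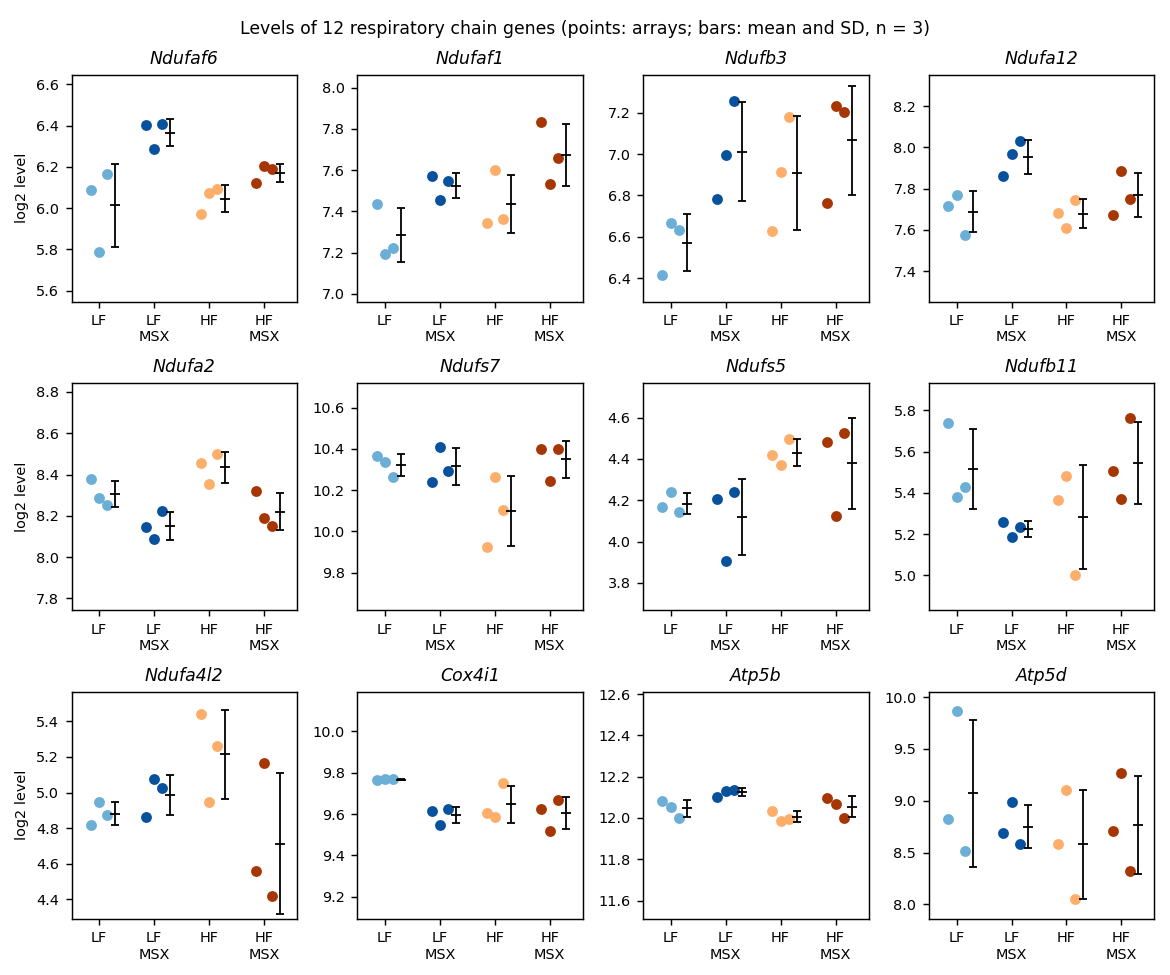
Points are log2 levels of 12 genes in single arrays by group (LF low-fat, HF high-fat, 3 arrays each), and bars give the mean and SD beside them; axes start above 0 and span at least 1 unit. Ndufaf6 lies higher and Ndufa2 lower with MSX on both diets without overlap, while Atp5d ranges from 8.05 to 9.87.

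Complex II, which is also the succinate dehydrogenase of the tricarboxylic acid cycle, has all of its subunits encoded in the nucleus. Its 4 subunits had medians between −0.05 and 0.07 in the 4 comparisons of 2 groups. Sdha, the flavoprotein, was 10.98, 11.03 and 11.06 in the low-fat controls and 11.27, 11.19 and 11.14 with low-fat MSX, without overlap, and 11.09, 10.98 and 11.16 in the high-fat controls and 11.24, 11.06 and 11.03 with high-fat MSX, with overlap. Sdhaf2, the factor that attaches the flavin to Sdha, was 7.15, 7.32 and 7.35 in the low-fat controls and 7.42, 7.55 and 7.49 in the high-fat controls. That diet difference, 0.22 ± 0.10 (SE, adjusted p = 0.738), had the lowest p of the chain genes for diet without extract. With MSX the low-fat (7.36, 7.40 and 7.36) and high-fat (7.40, 7.38 and 7.45) arrays of Sdhaf2 overlapped.

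Complex III stayed within narrow bounds, and every fold change of its 7 subunits in the 7 comparisons lay between −0.13 and 0.18 on the log2 scale. Uqcrc2, a core protein that faces the matrix, was 10.31, 10.16 and 10.09 in the low-fat controls, 10.31, 10.36 and 10.25 with low-fat MSX, 10.18, 10.16 and 10.21 in the high-fat controls and 10.42, 10.29 and 10.32 with high-fat MSX. The high-fat MSX arrays of Uqcrc2 were all above the high-fat controls, and the low-fat groups overlapped. Uqcrh, the hinge protein that binds cytochrome c1, was lower without overlap under extract on the low-fat diet, 8.29, 8.31 and 8.30 against 8.52, 8.36 and 8.39. Its high-fat MSX arrays (8.38, 8.24 and 8.41) overlapped the high-fat controls (8.25, 8.39 and 8.40).

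The 10 complex IV subunits of most tissues had medians between 0 and 0.02 in the 4 comparisons of 2 groups. Cox4i1, the regulatory subunit on which ATP acts, was 9.76, 9.77 and 9.77 in the low-fat controls, 9.61, 9.55 and 9.62 with low-fat MSX, 9.60, 9.59 and 9.75 in the high-fat controls and 9.62, 9.52 and 9.67 with high-fat MSX. Low-fat control arrays were the highest and overlapped neither the low-fat MSX nor the high-fat control group. Cox7b, which has a role in the assembly of the complex, was measured by 2 probe sets that disagreed for extract on the high-fat diet, −0.23 and 0.22.

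Isoforms of complex IV that belong to other tissues were also on the array. Cox7a1 and Cox8b are isoforms of heart and skeletal muscle. The median of 13 skeletal and heart muscle markers, as a difference from their means, stayed between −0.07 and 0.09 in the arrays. Cox7a1 was 4.85, 4.96 and 5.13 in the low-fat controls and 5.25, 5.38 and 5.14 with low-fat MSX, without overlap, but 5.43, 5.12 and 5.0 in the high-fat controls and 5.04, 4.91 and 5.18 with high-fat MSX, with overlap. Its difference of extract effects was −0.42 (adjusted p = 0.955). The mean level of Cox7a1 was 5.12, near the array medians (4.68 to 4.75).

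Ndufa4l2, a hypoxia-inducible paralog of the complex IV subunit Ndufa4, had the lowest p for extract on the high-fat diet. It was 5.44, 4.94 and 5.26 in the high-fat controls and 4.56, 5.16 and 4.42 with high-fat MSX, and the groups overlapped through control replicate 2 and MSX replicate 2. Low-fat values were 4.82, 4.95 and 4.88 for controls and 4.86, 5.08 and 5.02 with MSX. The mean level of Ndufa4l2 was 4.95, near the array medians (4.68 to 4.75). The high-fat difference was −0.50 ± 0.18 (SE, adjusted p = 0.641) and the difference of extract effects −0.61 ± 0.26 (SE, adjusted p = 0.955).

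Markers of stellate cells and fibroblasts were set beside Ndufa4l2. In the high-fat controls their median was 0.84, −0.15 and 0 in replicates 1 to 3, and with high-fat MSX it was −0.01, −0.19 and −0.39. The highest array and the lowest array for these markers were also those for Ndufa4l2. Arrays in between matched less. High-fat control replicate 3 and high-fat MSX replicate 1 had marker medians of 0 and −0.01, with Ndufa4l2 at 5.26 and 4.56. Low-fat MSX replicate 3 had a marker median of 0.24, with Ndufa4l2 at 5.02. For extract on the high-fat diet 9 of 10 of these markers had a value below 0, and 0 were called. The part of these cells in the Ndufa4l2 values was not tested; without high-fat control replicate 1 the Ndufa4l2 difference was −0.39.

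ATP synthase mRNAs were close together between groups. The 5 F1 genes had medians of −0.06, 0.06, 0.04 and −0.07, and the 12 Fo and stalk genes medians of 0, 0.06, 0.09 and −0.03, in the order of comparisons used above. Atp5b, the catalytic beta subunit, was 12.08, 12.05 and 12.00 in the low-fat controls, 12.10, 12.13 and 12.14 with low-fat MSX, 12.04, 11.99 and 11.99 in the high-fat controls and 12.10, 12.07 and 12.00 with high-fat MSX. All low-fat MSX arrays were above the low-fat controls and above the high-fat MSX arrays, by margins under 0.1 on the log2 scale between nearest arrays. Atp5a1, the alpha subunit, also had its low-fat MSX arrays (11.65, 11.65 and 11.58) above the low-fat controls (11.50, 11.54 and 11.34). Its high-fat MSX arrays (11.54, 11.60 and 11.47) overlapped the high-fat controls (11.46, 11.44 and 11.54).

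Atp5d was 8.83, 9.87 and 8.52 in the low-fat controls, 8.69, 8.98 and 8.58 with low-fat MSX, 8.59, 9.10 and 8.05 in the high-fat controls and 8.71, 9.26 and 8.32 with high-fat MSX. In each group replicate 2 was the highest and replicate 3 the lowest array, and the groups overlapped. Its interval for diet without extract ran from −1.22 to 0.24. A second Atp5d probe set ran from 8.08 to 8.68 over the arrays and was also highest in replicate 2 of each group.

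Subunits encoded in mitochondrial DNA were measured on the same arrays. Of 13, 10 had a probe set with 1 symbol, and none passed the test in any comparison; their median changes lay between −0.01 and 0.03 in the 7 comparisons. Apart from ND6, these probe sets read close to the highest value on the arrays of 14.1, and no saturation flag came with the values. ND6, transcribed from the opposite strand to the others, spread the most, with −0.19 for diet without extract, 0.22 for extract on the high-fat diet and −0.23 for extract on the low-fat diet, each with an SE of 0.19. Single arrays carried these ND6 values: without high-fat MSX replicate 3 the extract value on the high-fat diet was −0.01, and without low-fat control replicate 2 the diet value was −0.05 and the low-fat extract value −0.08. For 36 other nuclear chain subunits and assembly factors outside the name rule the medians were −0.01, 0.11, 0.04 and 0.03, and 0 were called.

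**Figure D5:**
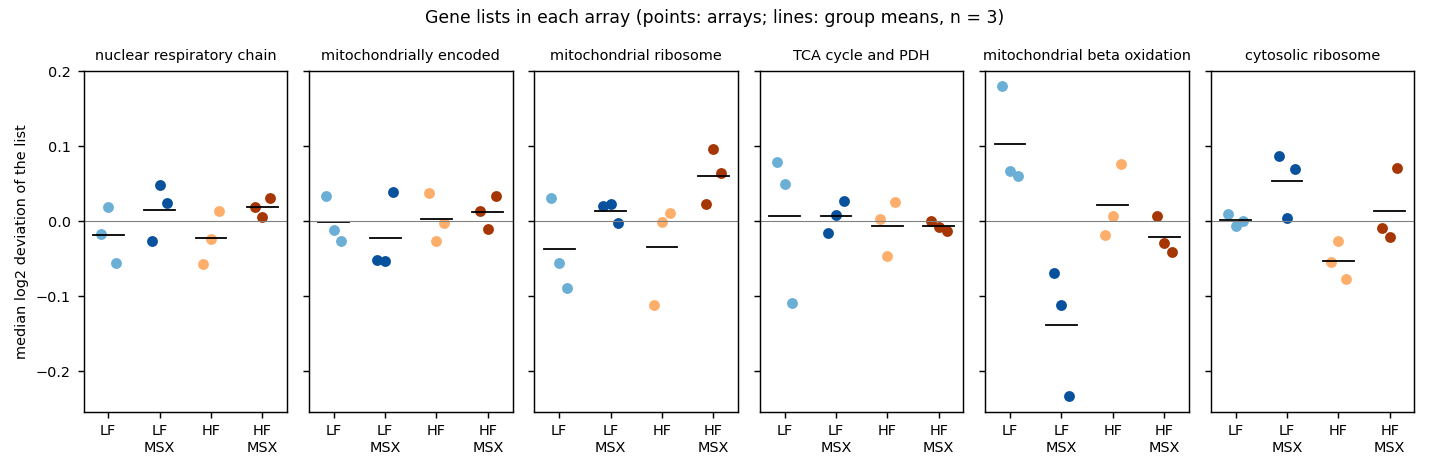
Each point is the median, over the genes of a list, of the log2 difference from each gene's mean, in 1 array; lines are group means of 3 arrays. The 93 chain genes stay between −0.06 and 0.05, and the beta oxidation genes lie lower in low-fat MSX (−0.23 to −0.07) than in low-fat control (0.06 to 0.18).

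Neighbouring mitochondrial gene groups gave context, with 0 genes called in any of them. The 71 mitochondrial ribosomal protein genes had medians of 0, 0.09, 0.04 and 0.06, and 18 genes of the tricarboxylic acid cycle and pyruvate dehydrogenase had 0.06 as the average extract effect. The 18 genes of mitochondrial beta oxidation, whose product NADH and reduced flavins feed the chain, had a median of −0.26 for extract on the low-fat diet, where the chain genes had 0.03. Of these 18, 9 had an unadjusted p under 0.05, all lower, against 8.05% of all genes. Eci1, which shifts double bonds during the oxidation of unsaturated fats, was −0.50 ± 0.12 (SE, adjusted p = 0.164), and Acadm, the medium-chain acyl-CoA dehydrogenase, −0.47 (adjusted p = 0.233).

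Coactivators that drive respiratory chain transcription had values of opposite sign with extract, and neither was called. Ppargc1a, encoding PGC-1 alpha, was 7.81, 7.70 and 7.43 in the high-fat controls and 7.43, 6.50 and 6.98 with high-fat MSX, and 7.67, 7.86 and 8.06 against 7.54, 8.05 and 7.55 on the low-fat diet. The 2 high-fat groups overlapped narrowly near 7.43, and the difference of Ppargc1a was −0.68 ± 0.22 (SE, adjusted p = 0.567), and −0.44 without high-fat MSX replicate 2. Ppargc1b, encoding PGC-1 beta, was 6.19, 6.25 and 6.21 in the high-fat controls and 6.69, 6.45 and 6.69 with high-fat MSX, and 6.45, 6.54 and 6.39 against 6.59, 6.87 and 6.89 on the low-fat diet. Its MSX arrays were above the controls of the same diet throughout, with an average extract effect of 0.36 ± 0.08 (SE, adjusted p = 0.12). Other regulators moved less with extract. Group means lay between 6.19 and 6.33 for Nrf1, 8.02 and 8.18 for Gabpa, and 6.69 and 6.81 for Tfam. Esrra was 7.23, 7.43 and 7.05 in the low-fat controls and 7.01, 6.70 and 6.94 in the high-fat controls, without overlap. Under MSX, Esrra overlapped between the diets (6.95, 7.07 and 7.09 on low-fat, 7.12, 6.83 and 7.06 on high-fat).

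Expression changes of chain genes were also set out by the promoter matches. For extract on the high-fat diet the 35 genes with an NRF1 core or ETS match had a median of 0.03 and the 41 with neither 0.04, and for diet without extract 0 and −0.01. At an unadjusted p under 0.05 stood 0 of 35 and 1 of 41 for extract on the high-fat diet (6.99% of all genes), and 3 of 35 and 2 of 41 for the average extract effect (9.66% of all genes).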

How the data were processed

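RNA from 12 liver samples was measured on Affymetrix arrays. The authors deposited log2 probe set values and, per the submitters' processing notes, used the Transcriptome Analysis Console. The software version, the normalization and the log base were not given in the sources used here, so log2 was read from the range of values. The values were used as deposited. Gene symbols are those of the platform annotation, where 23521 of 41345 probe sets had 1 symbol, 1814 had several and 16010 were not listed. The probe set of highest mean stood for a gene, which gave 22180 genes, and dim genes were kept.

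limma 3.58.1 in R 4.3.3 fitted 4 group means to all 12 arrays (8 residual and 5.18 prior degrees of freedom, two-sided). Benjamini-Hochberg adjustment ran over the 22180 genes within each of 7 comparisons, first-named group minus second, with a threshold of 0.05. With 3 arrays against 3, no exact permutation test can go below 0.1. The procedure was tested on simulated data.

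Chain genes were named by the lowest p per direction in each comparison, the largest SD over the arrays, or a fixed panel of 28 genes; Ndufa9, Uqcrh and the genes outside the chain were named after their values were seen. Members and lists were chosen with earlier results of these data known. No broad pairing of arrays by replicate number was seen, as 2 of 18 same-numbered pairs had deviations correlated over 0.1 (range −0.13 to 0.11). A correlation over all genes cannot show a pairing limited to part of them. Alternatives were quantile normalization, median centring, averaged probe sets, a filter on dim genes, a moderated trend, fits of 2 groups, a replicate block, leaving out each array, and, added after seeing the data, leaving out the pseudogenes and complex IV isoforms. Promoter sequences are from RefSeq GRCm38.p6.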

Additional observations from a re-analysis of the deposited data

How the results depend on the processing

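The count of chain genes past the threshold was 0 in all 7 comparisons under every alternative that was run, and the lowest adjusted p of a chain gene under any of them was 0.182, for the average extract effect. The median change was −0.0034 for diet without extract and ran from −0.0468 (without low-fat control replicate 3) to 0.0134 when 1 array was left out. For extract on the low-fat diet it was 0.0335 and ran from 0.0112 (without low-fat control replicate 3) to 0.0766 (without low-fat control replicate 2). For extract on the high-fat diet it ran from 0.0272 to 0.07, and for the average extract effect from 0.0194 to 0.0562. Under quantile normalization and the other settings the medians moved by less than the spread between arrays (SD 0.0326). With the replicate block the counts were 0, and the block cannot move a median in this balanced design (0.0382 for extract on the high-fat diet). Deviations of each array were correlated with those of the other groups and averaged by replicate number. Of the 3 numbers, an array's own gave the highest mean correlation for 5 of 12 arrays. Of the values of single named genes, none of them called, 108 of 1788 with an array left out and 14 of 1007 under other settings changed sign. The cause was not tested. With 3 arrays per group, shifts below about 0.25 on the log2 scale lie within the median interval of a chain gene.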

Other observations

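The same replicate number was the highest, or the lowest, array of every group for 6 of the 93 chain genes (6.45%), against 7.9% of all genes, so the chain genes were near the background. Replicate 2 was highest for Atp5d and Uqcrc1 (2.15%, against 1.06% of all genes), and replicates 1 and 3 were highest for 0 (against 1.42% and 1.95%). Replicate 1 was lowest for Atp5k, Ndufa13, Ndufa3 and Ndufb3 (4.3%, against 1.3%), replicate 2 for 0 (against 1.1%) and replicate 3 for Atp5d (1.08%, against 1.7%). With the replicate number as a block, the SE of Atp5d for a comparison of 2 groups went from 0.34 to 0.16, and its lowest adjusted p was 0.601. These genes were singled out after their values were seen, and no label ties the numbers to a batch.

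The 10 probe sets that carry several symbols, with 1 of them from these families, had medians of 0.03 for diet without extract, 0.06 for extract on the high-fat diet and 0.04 for extract on the low-fat diet, and 0 were called. Among the 10 chain genes with 2 probe sets, both gave the same sign in 7 for diet without extract and in 4 for the average extract effect, with the widest gap, 0.46, for Cox7b with extract on the high-fat diet and for Sdhaf1 in the difference of extract effects.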
